A study of Mus musculus with 24 samples.

Results

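The integrin and laminin chains are 37 mouse genes, 27 for integrin chains and 10 for laminin chains, among 19920 genes that the arrays measured under a single gene symbol. They were taken by name alone: every array feature whose one platform symbol is that of an integrin alpha or beta chain, or of a laminin alpha, beta or gamma chain. The integrin-binding proteins Itgb1bp1, Itgb1bp2 and Itgb3bp and the integrin-like protein gene Itgbl1 were left out, and Itgb2l, whose symbol fits the rule, was kept. At gene level the chains have 38 transcript clusters of 35556, because Itgad has 2 of them, and at exon level they have 1181 probe sets of 241576. The series measured RNA of 12 samples on Affymetrix mouse gene arrays, 2 arrays in each of 6 groups, to follow gene expression and alternative splicing in heart development and in the making of cardiomyocytes in culture. In culture these were mouse embryonic stem cells (ES) kept undifferentiated, at day 0, their aggregates on day 7 of differentiation, called embryonic bodies (EB), and cultures on day 14, called cardiac bodies (CB), all grown with 10% serum. The other groups were whole hearts of embryos at E17.5, of pups at P1 and of adult mice. The labels give no strain, genotype, sex or ES line and no agent other than serum, and they do not say how many hearts or cultures went into a sample. They also do not say that replicates were separate animals or cultures, so the p-values measure the spread between these samples, which may be technical.

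Integrins are receptors of the cell surface, each a pair of an alpha and a beta chain, that hold cells to the matrix around them and pass signals across the membrane. Laminins are trimers of an alpha, a beta and a gamma chain that polymerize into the sheet of the basement membrane, which wraps every cardiomyocyte and underlies every vessel. In striated muscle the pair of the alpha 7 and beta 1 chains is a known receptor for laminin with the alpha 2 chain, and loss of the human LAMA2 or ITGA7 gene causes a muscular dystrophy.

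Values are log2 signals, on which 1 unit is a 2-fold change, and differences are given as mean ± standard error (SE) from a limma model over all 12 arrays, with 2 arrays per group. A gene was called when its Benjamini-Hochberg adjusted p over all 19920 genes was under 0.05. Array medians lay between 5.61 and 5.76 at gene level, and the 2 arrays of a group correlated across genes at 0.971 in P1 hearts to 0.993 in ES cells. Cardiomyocyte markers averaged 10.87 or more in CB and heart arrays, against 6.19 or less in ES and EB arrays. Pluripotency markers averaged 11.40 and 11.42 in ES cells, 8.07 and 8.22 in embryonic bodies and 10.51 and 10.76 in cardiac bodies, so that the CB arrays lay above the EB arrays. The EB arrays differed from each other: all 5 measured erythroid markers and 7 of 8 fibroblast markers were higher by over 1 in replicate 1, and 4 of 10 endothelial markers in replicate 2. Among the chains, EB replicate 1 exceeded replicate 2 by over 1 in Itga4, Lama4, Lama5 and Lamc1, and replicate 2 exceeded replicate 1 in Itga9 and Itgb8. P1 replicate 1 was higher by over 1 than P1 replicate 2 in Itga1, Itga8, Itgb1 and Lama2. CB replicate 1 was higher in Lama2, adult replicate 2 in Itgb3, and no chain differed by that much within ES cells or E17.5 hearts. In whole hearts and cultures, fewer cells of a type and less RNA per cell cannot be told apart.

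Of the 37 chains 25 were called in at least 1 of 7 comparisons, and 12 were called in none, beside 57.8% of all genes called in at least 1. The 12 were Itga2b, Itga3, Itga9, Itga10, Itgad, Itgae, Itgax, Itgb2l, Itgb3, Lama5, Lamb3 and Lamc3. The group means spanned at least 2 log2 units in 11 chains and under 1 unit in 12. Wide spans were seen in Lama4, Lama2, Itgb6, Itga1 and Itga7, at 5.45, 4.92, 4.71, 4.27 and 3.33. The lowest group mean of each, between 3.72 and 5.06, lay under the median of all genes, where no level above background is shown. These spans may therefore understate the change, and they set no order among the 5 chains. The chains Itga4, Itgad, Itgae, Itgal, Itgax, Itgb2l and Lama3 stayed under that median, 6.06, in every group, and 3 of these 7 (Itga4, Itgal and Lama3) were called somewhere.

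**Figure D1:**
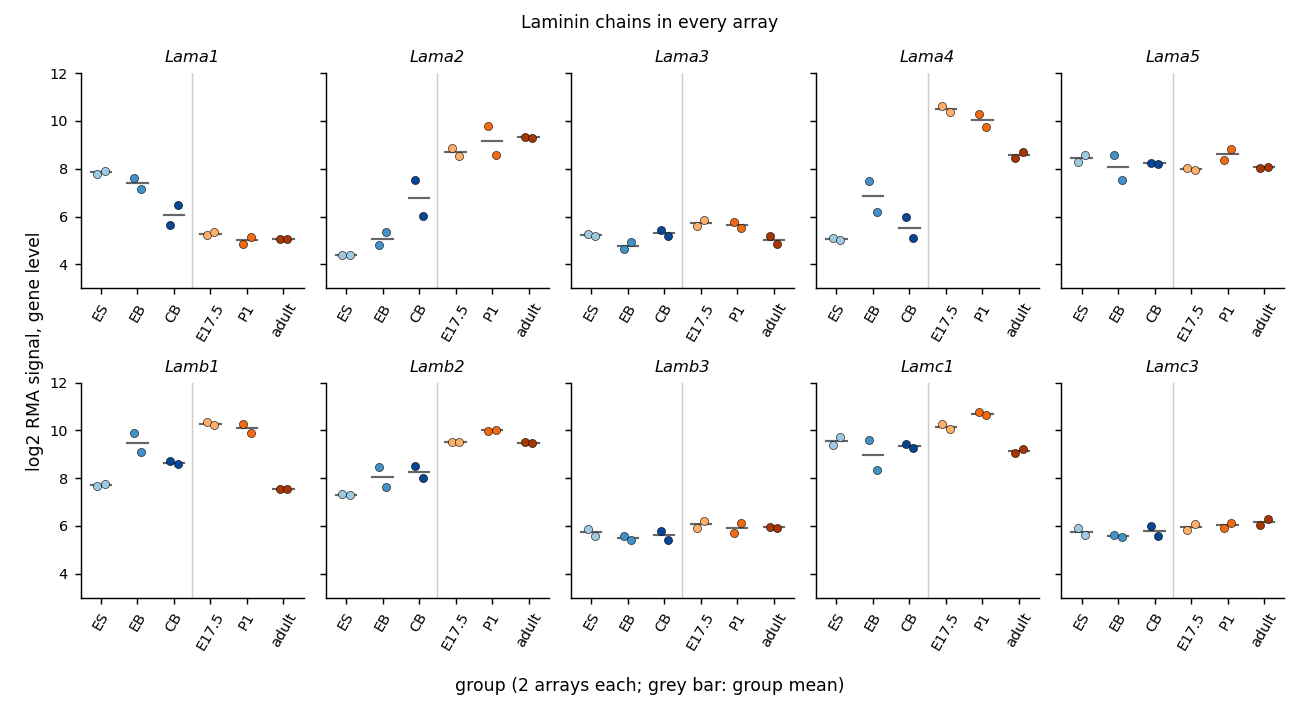
Log2 RMA signal at gene level of the 10 laminin chains, 1 panel per gene, with a point for each array and a grey bar at the mean of the 2 arrays; the vertical line parts cultured groups from hearts. Lama2 reached 9.32 and 9.30 in adult hearts against 4.38 and 4.4 in ES cells, while Lamb1 was at 7.55 and 7.55 in adult hearts against 10.34 and 10.21 at E17.5.

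**Figure D2:**
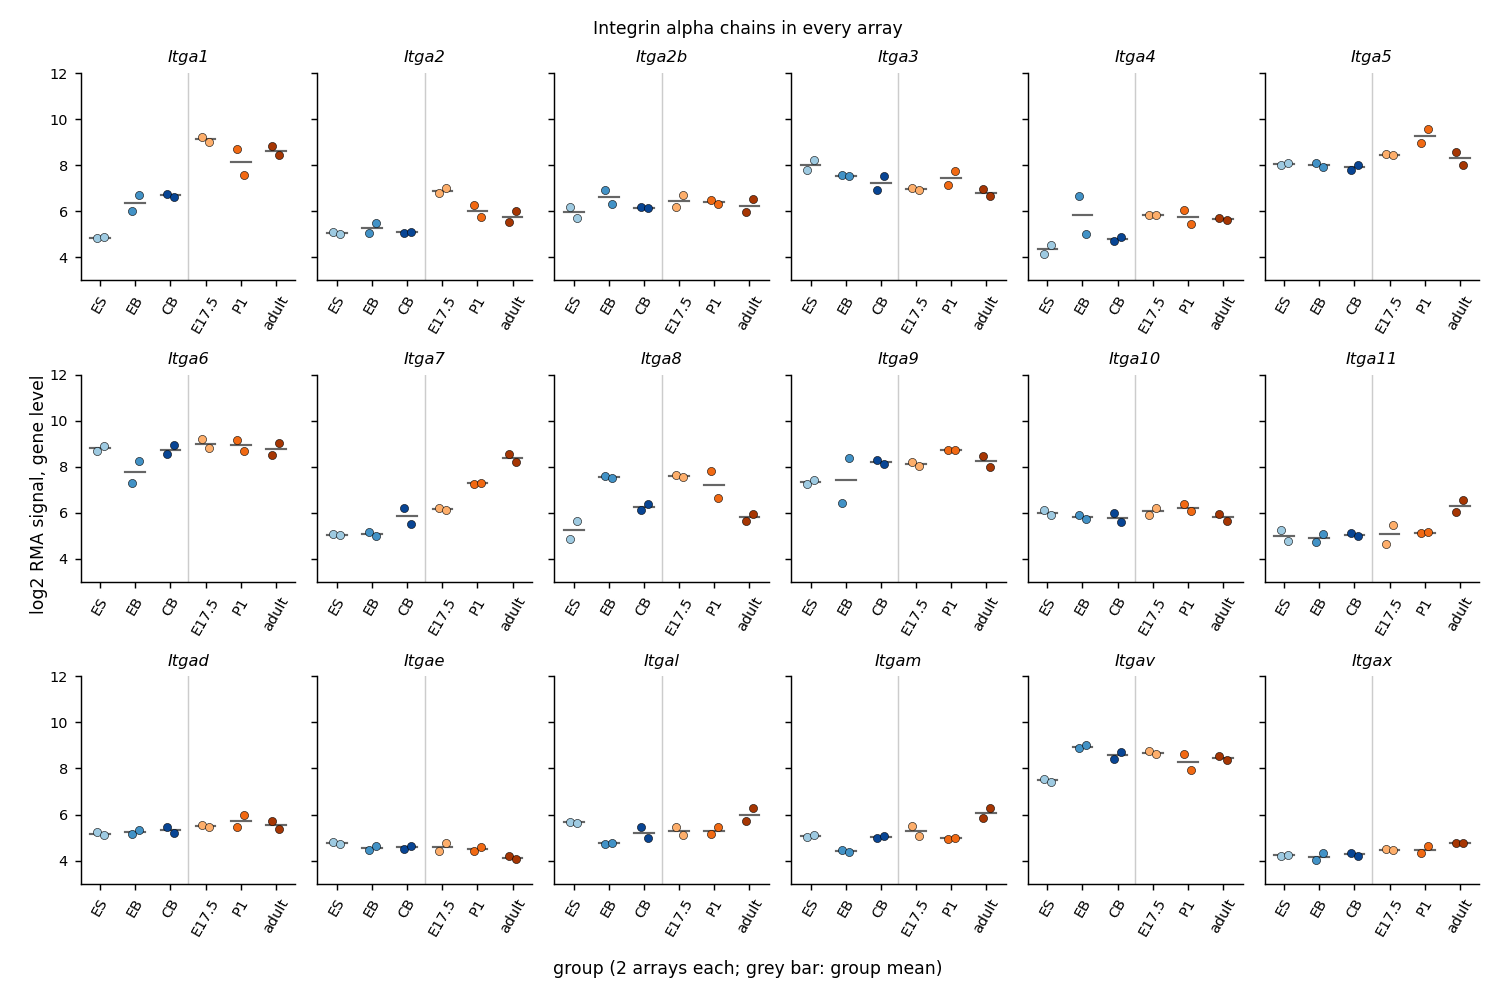
Log2 RMA signal at gene level of the 18 integrin alpha chains in every array, drawn as for the laminins. Itga7 lay at 8.57 and 8.21 in adult hearts against 6.20 and 6.12 at E17.5, and Itga8 at 7.61 and 7.51 in embryonic bodies against 4.88 and 5.64 in ES cells.

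**Figure D3:**
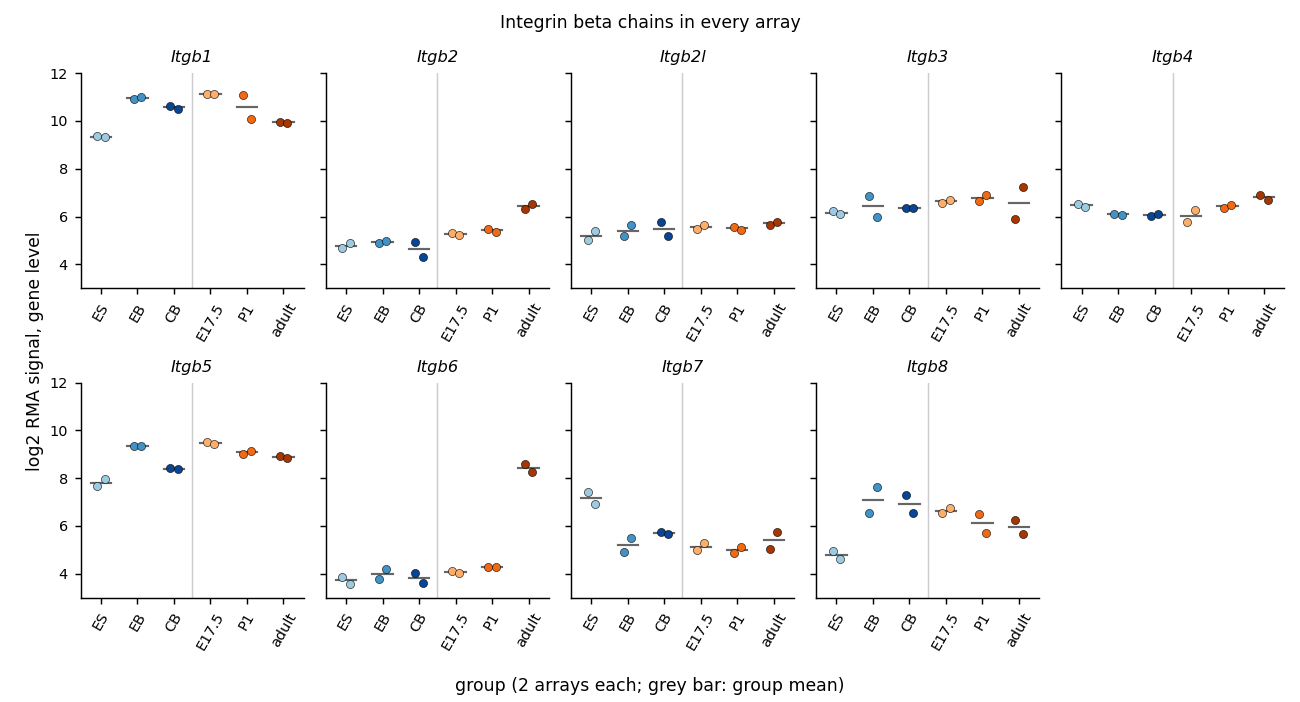
Log2 RMA signal at gene level of the 9 integrin beta chains in every array, drawn as for the laminins. Itgb6 stood at 8.61 and 8.25 in adult hearts and between 3.57 and 4.30 in the other 10 arrays.

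The first week of differentiation was read from embryonic bodies set against ES cells. In embryonic bodies the receptor chains Itga1, Itga4, Itga8, Itgav, Itgb1, Itgb5 and Itgb8 were higher, and so were the laminin chains Lama4 and Lamb1. Lower were Itga6, Itgal, Itgam and Itgb7. In total, 13 of 37 chains were called, 9 higher and 4 lower, against 20.6% of all genes, 12% higher and 8.61% lower. The median change of the chains was 0.07, beside -0.03 over all genes. The arrays of the groups did not overlap in 23 of 37 chains, beside 59.8% of all genes.

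Itgb1, the beta chain that most matrix-binding alpha chains pair with, gave 10.93 and 10.99 in embryonic bodies and 9.36 and 9.34 in ES cells. The EB arrays both lay above the ES arrays, by 1.60 ± 0.25 (adjusted p = 0.000653). Among its alpha partners, Itga8, which binds fibronectin and nephronectin, gave 7.61 and 7.51 in embryonic bodies and 4.88 and 5.64 in ES cells. It rose by 2.30 ± 0.33 (adjusted p = 0.00029), with the arrays of the groups apart. Itga1, a collagen and laminin receptor chain, gave 6.01 and 6.70 in embryonic bodies against 4.83 and 4.89 in ES cells, a rise of 1.49 ± 0.32 (adjusted p = 0.0056). Itga4, a receptor chain for fibronectin and VCAM-1, gave 6.68 and 5.01 in embryonic bodies against 4.15 and 4.55 in ES cells (1.49 ± 0.40, adjusted p = 0.0188). The EB arrays of Itga4 were apart from each other by more than the distance between the lower one and ES cells. Fibroblast markers, which were higher in the same EB replicate, averaged 7.86 and 6.0 in the EB arrays against 5.08 and 5.03 in ES cells, and erythroid markers averaged 9.98 and 5.93 against 4.80 and 4.80. The part of these cells in the Itga4 result was not tested.

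The alpha V chain and its partners moved as follows. Itgav, shared by the receptors for vitronectin and latent TGF-beta, gave 8.90 and 9.01 in embryonic bodies against 7.55 and 7.42 in ES cells (1.47 ± 0.22, adjusted p = 0.000466). Its partner Itgb5 gave 9.33 and 9.34 in embryonic bodies against 7.66 and 7.97 in ES cells (1.52 ± 0.16, adjusted p = 3.51e-05). Its partner Itgb8 gave 6.55 and 7.63 in embryonic bodies against 4.93 and 4.62 in ES cells (2.31 ± 0.37, adjusted p = 0.000727). All 3 rose, and in each the EB arrays lay above both ES arrays. Its partners Itgb3 (0.26 ± 0.37) and Itgb6 were not called.

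Of the chains that fell, Itga6, the laminin receptor chain of epithelia and stem cells, gave 7.32 and 8.24 in embryonic bodies against 8.69 and 8.91 in ES cells (-1.02 ± 0.31, adjusted p = 0.0316). Itgb7, a lymphocyte homing receptor chain, gave 4.92 and 5.48 in embryonic bodies against 7.40 and 6.92 in ES cells (-1.96 ± 0.27, adjusted p = 0.000216). In both genes the EB arrays lay below both ES arrays. Itgal and Itgam, leukocyte chains, fell by 0.91 ± 0.23 and 0.68 ± 0.19. Their means, 4.75 and 4.4 in embryonic bodies and 5.65 and 5.08 in ES cells, lay under the median of all genes. Itgal lost its call with the median of exon-level probe sets as gene level, and Itgam with quantile normalization. Leukocyte markers averaged 4.87 and 4.80 in the EB arrays against 5.62 and 5.61 in ES cells, and 3 of 10 fell. The highest of the 10 in ES cells were Laptm5 (8.72 and 9.44) and Cd68 (7.93 and 8.24). Pluripotency markers averaged 8.07 and 8.22 in the EB arrays against 11.40 and 11.42 in ES cells, and 8 of 8 fell. Epithelial markers averaged 10.41 and 10.17 in the EB arrays against 7.71 and 7.5 in ES cells, and 5 of 7 rose. These averages do not show that such cells were present, and their part in the 4 falls was not tested.

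Lama4, the alpha chain of vessel laminins, gave 7.49 and 6.21 in embryonic bodies against 5.08 and 5.03 in ES cells (1.79 ± 0.37, adjusted p = 0.00418). Lamb1, the beta chain of laminins of the embryo, gave 9.90 and 9.08 in embryonic bodies against 7.66 and 7.75 in ES cells (1.78 ± 0.24, adjusted p = 0.000189). Both rose, and both EB arrays stood above ES cells. Endothelial markers averaged 6.79 and 7.64 in the EB arrays against 5.77 and 5.79 in ES cells. Of these 10 markers 6 were called higher and 1, Pecam1, lower. Fibroblast markers averaged 7.86 and 6.0 in the EB arrays against 5.08 and 5.03 in ES cells, with 6 of 8 called higher. The part of either cell type in the Lama4 result was not tested. Lama1, the alpha chain of the first laminins of the embryo, was not called (-0.47 ± 0.26), nor were Lama2, Lama5, Lamb2 and Lamc1. Itga4, Itga6, Itgal and Itgam lost their calls without EB replicate 1 or either ES array. Without EB replicate 1, Itga9, Lama5 and Lamc1 gained one; without EB replicate 2, Itga1 and Itgam lost theirs and Itga2b, Itga9 and Lamb2 gained one. Itga8, Itgav, Itgb1, Itgb5, Itgb7, Itgb8, Lama4 and Lamb1 kept theirs with any one of the 12 arrays left out.

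The second week, in which cardiomyocyte markers appear, was read from cardiac bodies set against embryonic bodies. Cardiac bodies had more Lama2 and Itga7, the alpha chains of the muscle laminin and of its receptor, and less Lama1, Lama4, Lamb1, Itga8 and Itgb5. The 7 calls, 2 higher and 5 lower, stand beside 11.9% of all genes called, 5.45% higher and 6.43% lower. Groups did not overlap in 16 of 37 chains, beside 52.3% of all genes, and the median change was 0.01 for the chains and -0.01 for all genes. Lama2 gave 7.52 and 6.04 in cardiac bodies against 4.81 and 5.34 in embryonic bodies (1.71 ± 0.44, adjusted p = 0.0233). Itga7 gave 6.21 and 5.54 in cardiac bodies against 5.19 and 4.98 in embryonic bodies (0.79 ± 0.22, adjusted p = 0.0347). In both genes CB replicate 1 was the higher of the CB arrays, and both CB arrays lay above the EB arrays. For Itga7 the group means, 5.87 in cardiac bodies and 5.08 in embryonic bodies, lay under the median of all genes, 6.06. No level above background is shown there. Lama1 gave 5.64 and 6.49 in cardiac bodies against 7.63 and 7.14 in embryonic bodies (-1.32 ± 0.26, adjusted p = 0.00471). Itgb5 gave 8.41 and 8.38 in cardiac bodies against 9.33 and 9.34 in embryonic bodies (-0.94 ± 0.16, adjusted p = 0.00251). The groups did not overlap in either. Itga8 fell by 1.29 ± 0.33, Lama4 by 1.33 ± 0.37 and Lamb1 by 0.85 ± 0.24. Fibroblast markers averaged 5.45 and 5.58 in cardiac bodies against 7.86 and 6.0 in embryonic bodies, with 2 of 8 lower. Endothelial markers averaged 5.76 and 5.82 against 6.79 and 7.64, with 6 of 10 lower and 1, Pecam1, higher. Epithelial markers averaged 7.27 and 7.57 in cardiac bodies against 10.41 and 10.17 in embryonic bodies, with 6 of 7 lower. Pluripotency markers averaged 10.51 and 10.76 in cardiac bodies against 8.07 and 8.22 in embryonic bodies, with 8 of 8 higher. The part of these cells in the 7 calls was not tested. The count of 7 came to 3 without EB replicate 1 and to 2 without CB replicate 1. It came to 4 without either ES array, without CB replicate 2 or without either E17.5 array. Itgb5 alone kept its call with any one array left out. With the median of exon-level probe sets as gene level, Lama2 kept its call and the other 6 lost theirs, and with quantile normalization Itga7, Itga8 and Lamb1 lost theirs.

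Set against ES cells, cardiac bodies had 11 called chains, 9 higher and 2 lower, where 9.8% of all genes were called, 6.19% higher and 3.61% lower. Groups did not overlap in 20 of 37 chains, beside 54.9% of all genes. This comparison shares its arrays with the 2 before it. Lama2 was at 7.52 and 6.04 in cardiac bodies and at 4.38 and 4.4 in ES cells (2.39 ± 0.44, adjusted p = 0.00362). Itgb8 was at 7.29 and 6.55 in cardiac bodies and at 4.93 and 4.62 in ES cells (2.14 ± 0.37, adjusted p = 0.00262). Itga1 was at 6.74 and 6.64 in cardiac bodies and at 4.83 and 4.89 in ES cells (1.83 ± 0.32, adjusted p = 0.00303). In these 3 genes each CB array was above each ES array. Smaller rises were called for Itgb1 (1.22 ± 0.25), Itgav (1.08 ± 0.22), Lamb2 (0.95 ± 0.25), Lamb1 (0.94 ± 0.24), Itga7 (0.81 ± 0.22) and Itgb5 (0.58 ± 0.16). Lama1 was at 5.64 and 6.49 in cardiac bodies and at 7.80 and 7.91 in ES cells (-1.79 ± 0.26, adjusted p = 0.000672), and Itgb7 fell by 1.46 ± 0.27. Itga6 was not called at gene level (-0.05 ± 0.31), nor was Itga5, the fibronectin receptor chain (-0.16 ± 0.23), Itga3, another laminin receptor chain (-0.77 ± 0.25, adjusted p = 0.0838), or Lamc1, the gamma chain of most laminins (-0.22 ± 0.31). The calls of Itga1, Itgb8, Lama1 and Lama2 held with any one array left out; the count came to 5 without either ES array and to 6 without CB replicate 1. Itgb5 kept its call in 2 of the 12 fits without an array. Itga7, Lamb1 and Lamb2 lost theirs with the median of exon-level probe sets as gene level. Both Itga7 means, 5.87 in cardiac bodies and 5.06 in ES cells, lay under the median of all genes.

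In hearts 1 day after birth, against hearts at E17.5, 2 chains were called, 1 higher and 1 lower, beside 5.13% of all genes, 2.08% higher and 3.05% lower. Itga7 gave 7.27 and 7.30 at P1 against 6.20 and 6.12 at E17.5 and was higher by 1.12 ± 0.22 (adjusted p = 0.0103). Itga2, a collagen receptor chain, gave 6.28 and 5.74 at P1 against 6.78 and 7.00 at E17.5 (-0.88 ± 0.23, adjusted p = 0.0494). In both the arrays of the groups were apart, as they were in 18 of 37 chains and in 42.7% of all genes. The laminin chains had no call; Lama2 differed by 0.47 ± 0.44, Lama4 by -0.47 ± 0.37, Lamb2 by 0.49 ± 0.25 and Lamc1 by 0.54 ± 0.31. This comparison rested on single arrays. The count was 7 without P1 replicate 1, with Itga1, Itga5, Itga8, Itgav and Itgb1 added, and 0 without P1 replicate 2 or without either E17.5 array. Without an ES or a CB array it was 1, with Itga2 lost.

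Adult hearts were set against P1 and E17.5 hearts, comparisons that share the adult arrays and are therefore given side by side. The adult heart had more Itgb6, Itga7, Itga11, Itgal, Itgam and Itgb2 and less Lamb1, Lamc1, Lama3, Lama4 and Itga8 than either earlier stage. These values come from the same arrays as the exon-level values below, where the adult arrays stand apart. At gene level too, age and anything else particular to the adult arrays cannot be told apart. Against P1 hearts 12 chains were called, 6 higher and 6 lower, beside 30.2% of all genes, 15.6% higher and 14.7% lower. Against E17.5 hearts 15 were called, 7 higher and 8 lower, beside 36.1% of all genes, 18.1% higher and 18% lower. The chains were thus called about as often as genes at large in both. Groups did not overlap in 23 of 37 chains against P1, beside 60.4% of all genes, and in 26 against E17.5, beside 68%. The median change of the chains was -0.16 against P1 and -0.15 against E17.5, beside 0.04 and 0.05 over all genes.

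Itgb6, a partner of the alpha V chain best known from epithelia, where the pair activates TGF-beta, differed by over 4 log2 units between adult and earlier hearts, with the earlier hearts at low signals. It stood at 8.61 and 8.25 in adult hearts, against 4.28 and 4.30 at P1 and 4.10 and 4.04 at E17.5. The adult arrays lay far above the others, by 4.14 ± 0.21 over P1 (adjusted p = 1.58e-07) and by 4.36 ± 0.21 over E17.5 (adjusted p = 4.74e-08). Of the 22 Itgb6 probe sets at exon level, read from the same arrays, 20 were higher in both adult arrays than in both P1 arrays, and 21 than in both E17.5 arrays. Epithelial markers averaged 5.47 and 5.29 in adult hearts, against 5.71 and 5.88 at P1 and 5.99 and 6.19 at E17.5. Of 7 none was called higher by limma, while 3 were lower than at P1 and 2 than at E17.5. The part of epithelial cells in the Itgb6 result was not tested. The Itgb6 partner Itgav was at 8.54 and 8.36 in adult hearts against 8.63 and 7.92 at P1 and 8.76 and 8.61 at E17.5. It was called in neither comparison.

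Itga7 gave 8.57 and 8.21 in adult hearts, against 7.27 and 7.30 at P1 and 6.20 and 6.12 at E17.5. Each stage lay above the one before without overlap, and the adult hearts exceeded P1 hearts by 1.11 ± 0.22 (adjusted p = 0.00213) and E17.5 hearts by 2.23 ± 0.22 (adjusted p = 8.04e-06). At exon level 29 of its 30 probe sets were higher in both adult arrays than in both E17.5 arrays. Its partner Itgb1 gave 9.95 and 9.93 in adult hearts, against 11.09 and 10.08 at P1 and 11.11 and 11.13 at E17.5. It was lower by 1.18 ± 0.25 than at E17.5 (adjusted p = 0.00293). At exon level 14 of 19 Itgb1 probe sets were lower in both adult arrays than in both E17.5 arrays, and 1 was higher. Itgb1 was not called against P1 (-0.65 ± 0.25, adjusted p = 0.0753), where the P1 arrays differed by over 1 from each other. The laminin alpha chain that this receptor binds, Lama2, stood at 9.32 and 9.30 in adult hearts, against 9.78 and 8.56 at P1 and 8.85 and 8.55 at E17.5, and was not called against P1 (0.14 ± 0.44) or E17.5 (0.61 ± 0.44). The other laminin-binding chains Itga3 and Itga6 were not called in either comparison.

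Lamb1 gave 7.55 and 7.55 in adult hearts, against 10.28 and 9.89 at P1 and 10.34 and 10.21 at E17.5. The adult arrays were below all earlier hearts, by 2.54 ± 0.24 against P1 (adjusted p = 1.25e-05) and by 2.73 ± 0.24 against E17.5 (adjusted p = 3.6e-06). The related chain Lamb2, of muscle, vessel and nerve basement membranes, stood at 9.51 and 9.47 in adult hearts, against 9.98 and 10.02 at P1 and 9.51 and 9.52 at E17.5, and was called in neither (-0.51 ± 0.25 and -0.02 ± 0.25). Lama4 gave 8.45 and 8.69 in adult hearts, against 10.31 and 9.75 at P1 and 10.61 and 10.39 at E17.5, falls of 1.46 ± 0.37 and 1.93 ± 0.37 (adjusted p = 0.0103 and 0.00141). Lamc1 gave 9.07 and 9.22 in adult hearts, against 10.75 and 10.64 at P1 and 10.27 and 10.05 at E17.5, falls of 1.55 ± 0.31 and 1.02 ± 0.31 (adjusted p = 0.00208 and 0.0203). In both chains the adult arrays lay below all 4 earlier heart arrays. Lama3 gave 5.17 and 4.85 in adult hearts, against 5.76 and 5.52 at P1 and 5.60 and 5.87 at E17.5. These values lay under the median of all genes, and both Lama3 calls were lost with the median of exon-level probe sets as gene level. Lama5, an alpha chain of epithelial and vessel laminins, differed by -0.55 ± 0.28 from P1 and by 0.07 ± 0.28 from E17.5 and was not called. Fibroblast markers averaged 8.50 and 8.82 in adult hearts, against 10.10 and 9.56 at P1 and 10.04 and 10.21 at E17.5, with 4 of 8 called lower and 1 higher against P1, and 5 lower and 1 higher against E17.5. Endothelial markers averaged 9.12 and 9.34 in adult hearts, against 9.30 and 9.34 at P1 and 9.10 and 9.03 at E17.5. Of these 10 markers 1 was called higher and 2 lower against P1, and 1 higher and 1 lower against E17.5. The part of fibroblasts or endothelial cells in the lower laminin chains was not tested.

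Itga8 gave 5.66 and 5.95 in adult hearts, against 7.80 and 6.65 at P1 and 7.64 and 7.57 at E17.5, falls of 1.42 ± 0.33 and 1.80 ± 0.33 (adjusted p = 0.00561 and 0.000933). Itga11, a fibroblast receptor chain for collagen, gave 6.06 and 6.58 in adult hearts, against 5.12 and 5.17 at P1 and 4.65 and 5.49 at E17.5, rises of 1.18 ± 0.28 and 1.25 ± 0.28 (adjusted p = 0.0065 and 0.00358). The adult arrays were the lowest of the hearts for Itga8 and the highest for Itga11. Itga5 fell against P1 by 0.96 ± 0.23, and Itga2 (-1.12 ± 0.23), Itgb5 (-0.60 ± 0.16) and Itgb4, the epithelial beta chain (0.79 ± 0.19), were called against E17.5. The Itgb5 call was lost with the median of exon-level probe sets as gene level. Of 15 Itgb5 probe sets, 7 were lower in both adult arrays than in both E17.5 arrays, and 1 was higher. Of 41 Itgb4 probe sets, 22 were higher in both adult arrays than in both E17.5 arrays, and 3 were lower.

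Of the leukocyte chains, 3 rose against both earlier stages. Itgb2, the shared beta chain, gave 6.32 and 6.53 in adult hearts, against 5.46 and 5.37 at P1 and 5.33 and 5.24 at E17.5 (1.01 ± 0.21 and 1.14 ± 0.21). Its macrophage and granulocyte partner Itgam gave 5.87 and 6.29 in adult hearts, against 4.95 and 4.98 at P1 and 5.48 and 5.06 at E17.5 (1.11 ± 0.19 and 0.81 ± 0.19). Its lymphocyte partner Itgal rose by 0.69 ± 0.23 and 0.70 ± 0.23, calls that were both lost with the median of exon-level probe sets as gene level. The Itgb2 partners Itgad and Itgax were not called. At exon level 10 of 17 Itgb2 probe sets were higher in both adult arrays than in both E17.5 arrays, and 0 were lower. For Itgam 14 of 32 probe sets were higher in the same way, and 3 were lower. Leukocyte markers averaged 7.10 and 7.19 in adult hearts, against 5.81 and 6.03 at P1 and 5.82 and 5.82 at E17.5, and 8 of 10 rose in each comparison; their part was not tested. The platelet chain Itgb3, which also pairs with alpha V, gave 5.90 and 7.24 in adult hearts, against 6.64 and 6.91 at P1, so the adult arrays enclosed those at P1. The 4 measured platelet markers of 8 listed averaged 7.89 and 9.46 in the same adult arrays, against 5.86 and 6.04 at P1. The part of platelets in the Itgb3 values was not tested. The platelet partner of Itgb3, Itga2b, gave 5.95 and 6.54 in adult hearts against 6.50 and 6.34 at P1 and was not called.

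Calls of Itga7, Itga8, Itgam, Itgb2, Itgb6, Lamb1 and Lamc1 against P1, and of Itga2, Itga7, Itga8, Itgb1, Itgb2, Itgb6, Lama4 and Lamb1 against E17.5, held with any one array left out. Without adult replicate 2 the count was 8 against P1, with Itga5, Itga11, Itgal and Lama3 lost, and 10 against E17.5, with Itgal, Itgam, Itgb5, Lama3 and Lamc1 lost. Lama4 lost its call against P1 without P1 replicate 1 or adult replicate 1, and Lamc1 lost its call against E17.5 without any one of the 4 arrays compared.

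Cardiac bodies were set against E17.5 hearts to place the cultured chains beside the embryo's. They had less of most chains that differed: 9 were lower and 1 higher, against 23.7% of all genes called, 11.6% lower and 12.1% higher. Groups did not overlap in 22 of 37 chains, beside 61.3% of all genes. The median change was -0.27 for the chains and -0.02 for all genes. Lama4 gave 5.96 and 5.08 in cardiac bodies and 10.61 and 10.39 in E17.5 hearts, a fall of 4.98 ± 0.37 (adjusted p = 2.1e-06). All 41 Lama4 probe sets had a lower mean in cardiac bodies at exon level. Lama2 gave 7.52 and 6.04 in cardiac bodies and 8.85 and 8.55 in E17.5 hearts (-1.92 ± 0.44, adjusted p = 0.00632). Lamb1 gave 8.71 and 8.58 in cardiac bodies and 10.34 and 10.21 in E17.5 hearts (-1.63 ± 0.24, adjusted p = 0.000369), and Lamb2 fell by 1.26 ± 0.25. The CB arrays lay below the heart arrays in these 4 laminin chains.

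Lama1 was the one chain called higher, at 5.64 and 6.49 in cardiac bodies and 5.21 and 5.35 in E17.5 hearts (0.78 ± 0.26, adjusted p = 0.0422). Of these arrays only CB replicate 2 lay above the median of all genes, 6.06. The call was lost without CB replicate 2 and without any one of the ES, E17.5 or adult arrays. Of the receptor chains Itga1 gave 6.74 and 6.64 in cardiac bodies and 9.25 and 9.0 in E17.5 hearts (-2.43 ± 0.32, adjusted p = 0.00018). Itga2 gave 5.08 and 5.12 in cardiac bodies and 6.78 and 7.00 in E17.5 hearts (-1.79 ± 0.23, adjusted p = 0.000149). Both collagen receptor chains were lower without overlap. Itga8 (-1.33 ± 0.33), Itgb5 (-1.09 ± 0.16) and Itgb2 (-0.66 ± 0.21) were also called lower. Both Itgb2 means, 4.62 in cardiac bodies and 5.28 in E17.5 hearts, lay under the median of all genes. Itgb2 lost its call with quantile normalization, and Itga8 with the median of exon-level probe sets as gene level. Itga7 was not called (-0.29 ± 0.22), nor were Itgb1 (-0.55 ± 0.25), Itga6, Itgav, Lama5 and Lamc1 (-0.82 ± 0.31, adjusted p = 0.0745). Fibroblast markers averaged 5.45 and 5.58 in cardiac bodies against 10.04 and 10.21 in E17.5 hearts, with 8 of 8 lower, and endothelial markers 5.76 and 5.82 against 9.10 and 9.03, with 10 of 10 lower. Cardiomyocyte markers averaged 11.3 and 10.87 in cardiac bodies against 12.4 and 12.28 in E17.5 hearts, with 7 of 10 lower. Leukocyte markers averaged 5.31 and 5.17 against 5.82 and 5.82, with 5 of 10 lower. Pluripotency markers averaged 10.51 and 10.76 against 4.77 and 4.73, with 8 of 8 higher. Epithelial markers averaged 7.27 and 7.57 against 5.99 and 6.19, with 5 of 7 higher and 1 lower. The part of these cells in the called chains was not tested. The calls of Itga1, Itga2, Itgb5, Lama4, Lamb1 and Lamb2 held with any one array left out, and the count was 6 without E17.5 replicate 1, with Itga8, Itgb2, Lama1 and Lama2 lost.

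The chains best known from muscle, vessels and the embryo's matrix, 17 in all, were followed in every comparison whether or not they were called. In embryonic bodies against ES cells 10 of them were not called, with changes between -0.58 in Lamc1 and 0.72 in Lamb2. In cardiac bodies against embryonic bodies 11 were not called, between -0.39 in Itgb1 and 0.97 in Itga6, the nearest to a call (adjusted p = 0.0593). In cardiac bodies against ES cells 8 were not called, between -0.77 in Itga3 and 0.87 in Itga9. At P1 against E17.5 hearts 16 were not called, between -0.99 in Itga1 and 0.81 in Itga5. In adult hearts 12 were not called against P1, between -0.65 in Itga3 and 0.50 in Itga1, and 11 against E17.5, between -0.49 in Itga1 and 0.61 in Lama2. In cardiac bodies against E17.5 hearts 10 were not called, between -0.82 in Lamc1 and 0.27 in Itga3. With 2 arrays per group, a missed call does not show that a chain was at the same level in both groups.

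**Figure D4:**
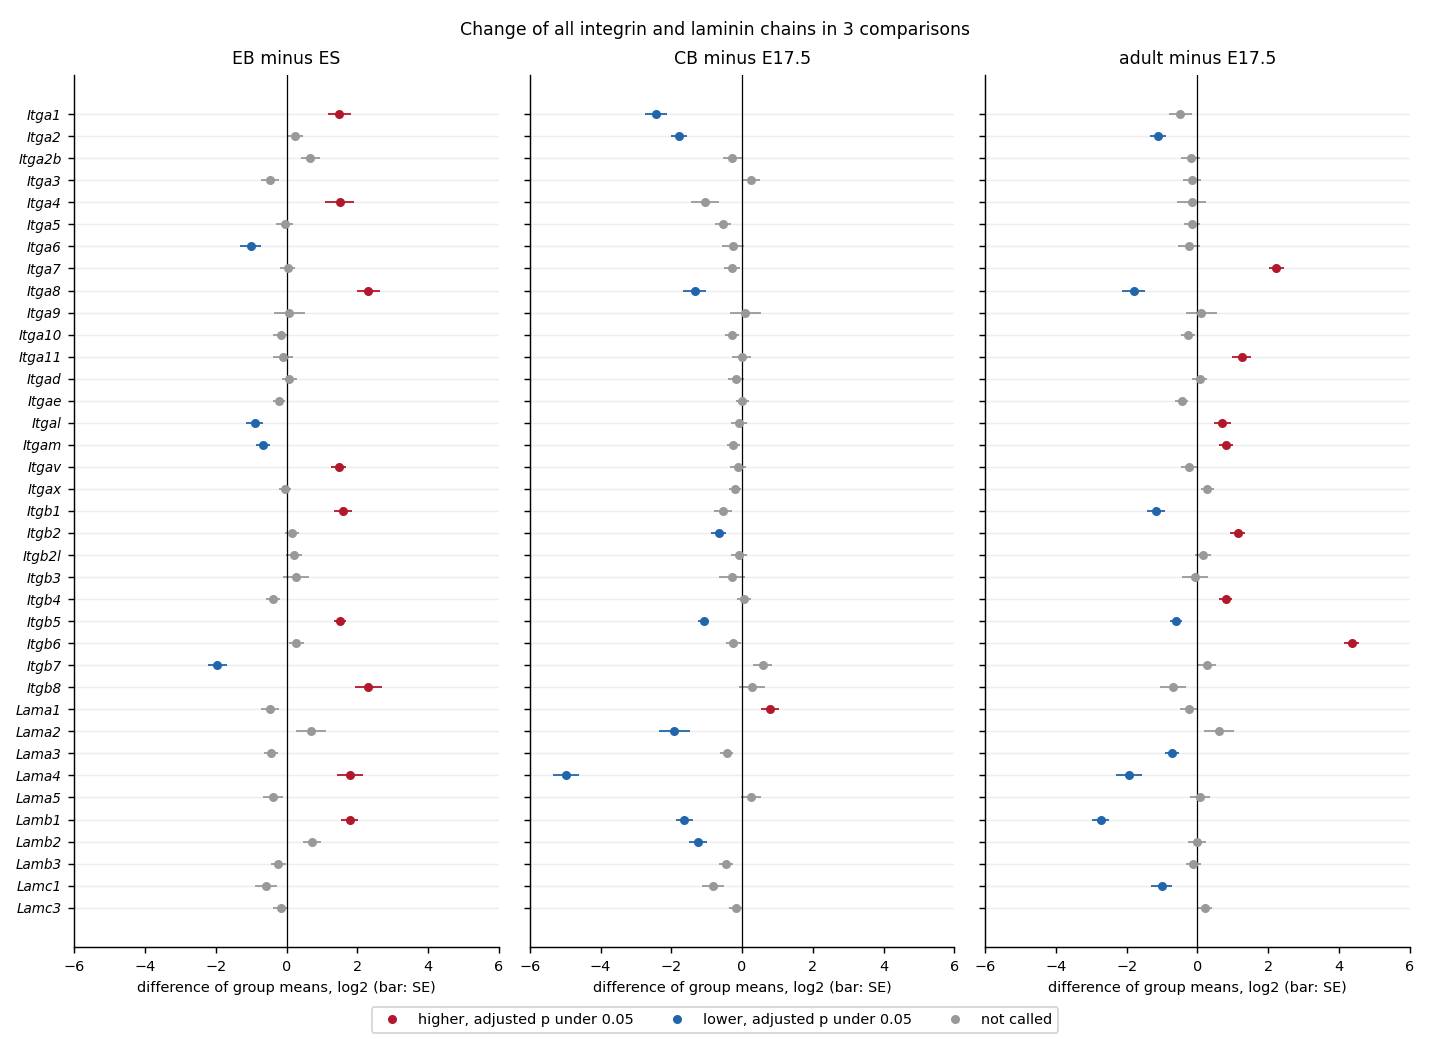
Difference of group means on the log2 scale with its SE, for all 37 chains in 3 comparisons of 2 arrays against 2; red and blue mark chains called higher and lower at an adjusted p under 0.05, grey those not called. In adult hearts Itgb6 differed by 4.36 and Lamb1 by -2.73 from E17.5 hearts, and in cardiac bodies Lama4 differed by -4.98.

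The proteins that work with these chains were read from 2 lists, whose counts stand beside the shares of all genes called in the same comparison. Of 30 genes of integrin adaptors and other integrin-associated proteins, 29 were measured. In embryonic bodies against ES cells 8 rose and 3 fell (12% and 8.61% of all genes). Parva, which binds integrin-linked kinase, rose by 2.77 ± 0.28, and Tns3, a tensin, fell by 1.96 ± 0.24. In cardiac bodies 4 rose and 2 fell against embryonic bodies (5.45% and 6.43% of all genes), and 8 rose and 2 fell against ES cells (6.19% and 3.61%). Itgb1bp2 (melusin, a muscle protein on the beta 1 tail) rose by 2.18 ± 0.24 against embryonic bodies and by 2.29 ± 0.24 against ES cells. At P1 the tensin gene Tns1 (1.22 ± 0.21) was the one gene of this list called against E17.5, where 2.08% of all genes rose. In adult hearts 5 rose and 9 fell against P1 (15.6% and 14.7% of all genes), and 6 rose and 8 fell against E17.5 (18.1% and 18%). Lims2, a LIM protein bound to integrin-linked kinase, was higher by 2.37 ± 0.22 than at E17.5, while Ilk, the kinase itself, was lower by 1.29 ± 0.19 and the actin crosslinker gene Flna fell by 1.68 ± 0.18. In cardiac bodies against E17.5 hearts 1 rose and 14 fell (12.1% and 11.6% of all genes), among them Tns1 (-2.42 ± 0.21). The list's median change in that comparison was -0.65, beside -0.02 over all genes, and in the other 6 it lay between -0.38 and 0.23.

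The partners of laminin in the basement membrane, 17 genes, were all measured, and their counts stand beside the same shares of all genes. In embryonic bodies 6 rose and 2 fell against ES cells (12% and 8.61% of all genes), with the collagen IV chains Col4a1 (1.77 ± 0.23) and Col4a2 (1.70 ± 0.21) among the rises. In cardiac bodies 3 rose and 2 fell against embryonic bodies (5.45% and 6.43% of all genes), with Nid1, the linker of laminin and collagen IV, lower by 1.13 ± 0.20. Against ES cells 5 rose and 1 fell (6.19% and 3.61% of all genes). At P1 the proteoglycan gene Hspg2 (perlecan, 1.34 ± 0.34) and Col15a1 (0.93 ± 0.20) were higher than at E17.5, where 2.08% of all genes rose. In adult hearts 2 rose and 10 fell against P1 (15.6% and 14.7% of all genes), and 3 rose and 9 fell against E17.5 (18.1% and 18%). Col4a2 gave 7.32 and 7.22 in adult hearts, against 9.77 and 9.93 at P1 and 9.28 and 9.14 at E17.5, and Nid2 6.73 and 7.16, against 8.83 and 8.98 and 8.73 and 8.91. The adult arrays were below all earlier hearts in both. The median change of the list was -0.89 against P1 and -0.69 against E17.5, beside 0.04 and 0.05 over all genes. In cardiac bodies against E17.5 hearts 1 rose and 9 fell (12.1% and 11.6% of all genes), with Nid1 lower by 2.04 ± 0.20 and Bcam, a laminin alpha 5 receptor, by 1.95 ± 0.22.

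Promoters from RefSeq (GRCm38.p6; 250 bases before to 50 after the annotated start) were matched for 24 of the 37 genes, 27 promoters in all. The starts of Itgb6, Lamb1 and Lama2 are shown because these chains gave large changes among hearts or in culture, written 5′ to 3′ on the gene's strand with any GC box (GGGCGG, either strand) in capitals.
Itgb6, chr2:60722554-60722853, minus strand: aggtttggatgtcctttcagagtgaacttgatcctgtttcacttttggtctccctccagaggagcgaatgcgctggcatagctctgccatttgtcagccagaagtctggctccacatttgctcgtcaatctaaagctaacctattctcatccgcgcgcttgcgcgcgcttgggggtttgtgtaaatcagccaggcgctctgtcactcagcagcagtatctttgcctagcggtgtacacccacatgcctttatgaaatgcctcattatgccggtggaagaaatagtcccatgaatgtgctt
Itgb6, chr2:60673644-60673943, minus strand: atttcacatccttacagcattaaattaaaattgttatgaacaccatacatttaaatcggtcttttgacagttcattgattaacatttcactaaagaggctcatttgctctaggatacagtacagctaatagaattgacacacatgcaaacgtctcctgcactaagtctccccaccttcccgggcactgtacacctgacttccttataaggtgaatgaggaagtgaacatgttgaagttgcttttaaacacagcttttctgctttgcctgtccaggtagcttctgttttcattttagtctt
Lamb1, chr12:31265043-31265342, plus strand: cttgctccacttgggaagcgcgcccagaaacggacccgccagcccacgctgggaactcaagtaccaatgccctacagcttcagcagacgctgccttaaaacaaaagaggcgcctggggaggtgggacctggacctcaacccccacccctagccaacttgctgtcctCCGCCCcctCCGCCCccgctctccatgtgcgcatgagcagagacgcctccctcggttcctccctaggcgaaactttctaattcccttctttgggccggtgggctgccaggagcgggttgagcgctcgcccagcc
Lama2, chr10:27616893-27617192, minus strand: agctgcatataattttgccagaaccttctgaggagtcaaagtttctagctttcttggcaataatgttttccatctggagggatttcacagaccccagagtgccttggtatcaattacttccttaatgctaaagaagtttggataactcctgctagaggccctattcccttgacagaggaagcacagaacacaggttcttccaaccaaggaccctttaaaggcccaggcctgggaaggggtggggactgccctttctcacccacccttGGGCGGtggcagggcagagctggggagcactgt

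The 2 annotated Itgb6 starts hold no GC box, Lamb1 holds 2 and Lama2 holds 1. Over the 27 promoters 12 held a GC box (44.4%), beside 35.7% of all 32851 promoters of the same length. The TATA box TATAAA, searched on both strands, was in 0 of the 27, beside 13.6% of all promoters, and the E-box CANNTG, whose 2 strands read alike, was in 23 (85.2%), beside 72.3%. The Lamb1 promoter has 18 CpG and the Itgb6 promoters 12 and 3, while Lama2 has 1; the median of all promoters is 7. These counts describe the windows, and the arrays do not say which start was used.

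At exon level the splicing index was used: the log2 value of 1 probe set after subtraction of the median over its gene's remaining probe sets on that array. A probe set was called at an adjusted p under 0.05 with an index change of at least 1, among genes and probe sets at or above the median level. The adult arrays stand apart here. In adult hearts 13.5% of all tested probe sets were called against P1 and 17% against E17.5, where at most 0.145% were called in each of the other 5 comparisons. Of the chains' probe sets 49 of 494 were called in adult hearts against P1 (9.92%) and 69 of 452 against E17.5 (15.3%), shares under those of all genes. The adult calls are thus no feature of the chains. All adult arrays are of 1 group, so that age and anything else particular to those arrays cannot be told apart.

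In the other comparisons 2 probe sets of the chains were called. Itga6 probe set 10472844 differed between cardiac and embryonic bodies, 1 of 351 probe sets of the chains tested and 1 of 2 called among all genes (0.00235%). Transcripts of this chain are known to end in alternative exons that give an A or a B form of the tail inside the cell, but which exon the probe set reads is not given in the sources used here. Its log2 signal was 9.01 and 8.68 in cardiac bodies, against 3.65 and 3.76 in embryonic bodies, and 6.58 and 6.05 in ES cells. In hearts it was 9.65 and 9.32 at E17.5, 9.65 and 8.72 at P1 and 9.36 and 9.76 in adults. The cardiac bodies thus sat with the hearts and apart from both earlier culture stages. The index was 0.65 and -0.08 in cardiac bodies against -3.56 and -4.19 in embryonic bodies, a difference of 4.16 ± 0.38 (limma adjusted p = 0.041). It was -2.04 and -2.69 in ES cells, from which cardiac bodies differed by 2.65 ± 0.38 without a call (adjusted p = 0.317). In the 6 heart arrays it lay between 0.24 and 0.87. The call was kept without EB replicate 1 (adjusted p = 0.0479) and lost without any other array (adjusted p between 0.0567 and 0.337), while the difference stayed between 3.8 and 4.52.

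**Figure D5:**
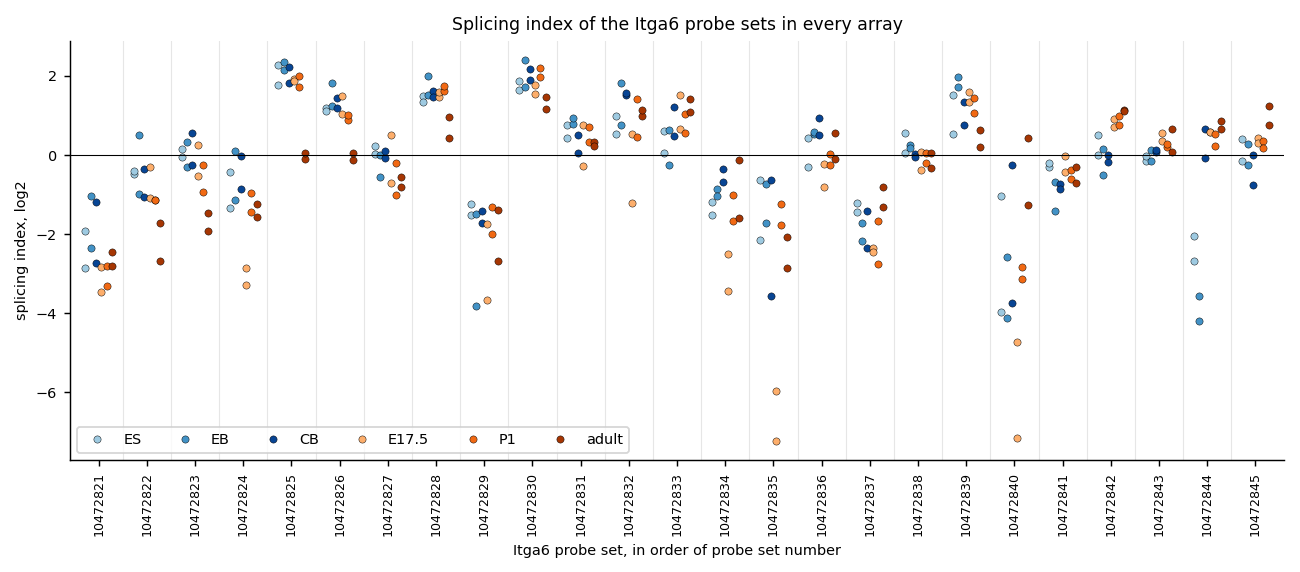
Splicing index (log2 probe set signal minus the median of the gene's other probe sets) of the 25 Itga6 probe sets, in order of probe set number, with 1 point per array coloured by group. At probe set 10472844 the ES and EB arrays lie between -4.19 and -2.04 and the CB and heart arrays between -0.08 and 0.87.

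Lama2 probe set 10368434 differed between cardiac bodies and E17.5 hearts, with a background of 0.145%. Its signal was 2.63 and 2.73 in cardiac bodies against 8.86 and 8.95 in E17.5 hearts. The index was -4.83 and -3.32 in cardiac bodies against 0.22 and 0.55 in E17.5 hearts (-4.46 ± 0.60, limma adjusted p = 0.0303). In P1 and adult hearts its signal was 7.71 or more, and in ES cells and embryonic bodies 3.34 or less. The gene itself was lower in cardiac bodies, and with an array left out the call held in 2 fits, each without an ES array. Without CB replicate 1 the probe set was not tested. Limma called 0 of 376 probe sets of the chains in embryonic bodies against ES cells (background 0%), 0 of 327 in cardiac bodies against ES cells (background 0.00364%) and 0 of 476 at P1 against E17.5 (background 0%). At an unadjusted p under 0.05 there were 16, 14 and 31 in the same order, beside 3.16%, 2.34% and 5.8% of all probe sets tested.

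Among the adult calls, given as values on the background above, Itgb1 probe set 10576675 had an index of 0.66 and 0.54 in adult hearts, against -0.96 and -1.12 at P1 and -1.39 and -1.69 at E17.5. Its adult index was above that of the other 10 arrays, by 2.14 ± 0.31 over E17.5 (adjusted p = 0.0035). Itga3 probe set 10390135 had an index of 1.78 and 0.38 in adult hearts against -2.63 and -3.29 at E17.5 (4.04 ± 0.55, adjusted p = 0.00298). Itga6 probe set 10472840 had 0.42 and -1.26 in adult hearts against -4.72 and -7.15 at E17.5 (5.51 ± 1.32, adjusted p = 0.0218), and its arrays were far apart within groups, at -3.75 and -0.25 in cardiac bodies. Itga7 probe set 10367453 had -0.63 and -1.14 in adult hearts against -3.48 and -4.05 at E17.5 and was not tested there, since Itga7 was under the level filter at E17.5. In Lamb1, whose gene level fell in adult hearts, all 11 called probe sets of 32 tested had a higher index in adult than in E17.5 hearts. One of them, 10395165, gave a signal of 9.12 and 9.43 in adult hearts against 9.39 and 9.72 at E17.5. Against P1 hearts 8 called Lamb1 probe sets were higher in adult hearts and 1 lower. In Lama5 5 called probe sets were higher and 8 lower in adult than in E17.5 hearts, and 1 was higher and 8 lower than in P1 hearts.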

How the data were processed

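The 12 RNA samples have a gene-level and an exon-level deposit each, 24 in number. The deposited values are log2 signals that the authors computed by RMA, run in Affymetrix Power Tools per the submitters' processing notes (versions not given in the sources used here), and the tables were normalized separately. RMA sets signals on 1 common distribution, so that differences are relative to the bulk of genes, and it compresses changes of dim probes. Per the labels' protocols, total RNA was reduced in ribosomal RNA, amplified and biotin-labelled. Symbols came from the platform annotation (21789 transcript clusters with 1 symbol, 1621 with several, 12146 with none; 212097, 4475 and 25004 probe sets), and only features with 1 symbol were analysed. For Itgad the cluster with the higher mean was used.

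The gene-level model was made in R 4.3.3 with limma 3.58.1 (6 group means over 12 arrays, 6 residual and 6.2 prior degrees of freedom), with Benjamini-Hochberg adjustment per comparison over 19920 genes, called at an adjusted p under 0.05. The splicing index was fitted likewise (3.6 prior degrees of freedom) over genes with at least 4 probe sets; both groups needed a gene level of at least 6.52 and 1 group a probe set signal of at least 6.67, the medians. Both fits were tested on simulated data. Members, lists and comparisons were chosen with earlier results of these data known. Every chain could be named; named were those called without overlap, 17 listed chains whatever their result (in part as ranges), the called probe sets outside the adult comparisons, 1 probe set each of Itga3, Itga6, Itga7 and Itgb1, and up to 4 called genes per list. The exon-level values of Lamb1 and Lama5 were chosen after they were seen. The number of arrays limits the precision. Alternatives were the replicate block, level filters, quantile normalization, an intensity trend, another gene level and each array left out. The R package data.table (version 1.17.8) read the files, and Python 3.11.15 (matplotlib 3.10.9, numpy 2.4.6, pandas 2.3.3) drew the figures.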

Additional observations from a re-analysis of the deposited data

How the results depend on the processing

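No called chain or probe set changed direction under any alternative run. Replicate numbers did not pair the samples: over 15 pairs of groups the deviations of same-numbered arrays correlated between -0.18 and 0.29, with 2 over 0.1. With the replicate number as a block, the chains called were 1 in place of 2 for P1 minus E17.5 (Itga2 lost); Itgb5 in cardiac bodies minus ES cells and Itgal in adult minus P1 also lost their calls. The probe sets called were 0 in place of 1 for cardiac bodies minus E17.5; other counts stayed within 1.5 times. With the median of exon-level probe sets as gene level, 1 chain (Lama2) was called in cardiac minus embryonic bodies (7 as reported) and 1 at P1 minus E17.5, where an intensity trend also gave 1. Without a filter on level, the probe sets called were 3 in embryonic bodies minus ES cells, 11 in cardiac bodies minus ES cells, 113 in adult minus P1, 138 in adult minus E17.5 and 7 in cardiac bodies minus E17.5, against 0, 0, 49, 69 and 1 as reported. For cardiac minus embryonic bodies, a filter at the 70th percentile or the gene-level table as gene level gave 0, and that table gave 2 for cardiac bodies minus E17.5. With each array left out in turn, called chains numbered 9 to 14 for embryonic bodies minus ES cells, 2 to 9 for cardiac minus embryonic bodies, 5 to 13 for cardiac bodies minus ES cells, 0 to 7 for P1 minus E17.5, 8 to 12 for adult minus P1, 10 to 15 for adult minus E17.5 and 6 to 12 for cardiac bodies minus E17.5. Called probe sets numbered 0 to 2, 0 to 3, 0 to 0, 0 to 0, 9 to 42, 17 to 71 and 0 to 1 in the same order; the 9 came without either P1 array and the 17 without E17.5 replicate 2. The cause of these shifts was not tested, other than that fewer arrays enter a fit with one left out.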

Other observations

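Among chains outside the main changes, Itga9, a receptor chain for tenascin and VCAM-1, gave 6.44 and 8.39 in embryonic bodies and between 7.26 and 8.75 in the other 10 arrays. Itga2b and Itgb3, the platelet pair, were called in no comparison, and Itga5 was highest in P1 hearts, at 8.97 and 9.57.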
